A study of Homo sapiens with 12 samples.

Results

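AP-1 and immediate early genes are described here across PEPD over-expression in a pair of glioblastoma cell lines. The members are the 10 genes FOS, FOSB, FOSL1, FOSL2, JUN, JUNB, JUND, EGR1, IER2 and IER3, found by their names among the 63241 genes of the count table, and each name matched 1 gene. The rule uses the names and no measured value. Polyadenylated RNA was sequenced in T98G and U251, both established human glioblastoma lines. The groups were T98G PEPD-OE and T98G NC, then U251 PEPD-OE and U251 NC, with 3 libraries each and 12 in all. PEPD-OE stands for over-expression of PEPD, which encodes prolidase, an enzyme that splits dipeptides ending in proline. The labels do not expand NC, and the vector, its promoter, and whether the cells were a pool or a clone are not stated in the labels. Nothing in them says that the replicates were separate cultures, so the p-values may measure technical spread only.

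AP-1 is a family of dimeric transcription factors. Jun proteins pair with each other or with Fos proteins, and Fos proteins need a Jun partner. The partners join through a leucine zipper, and the dimers bind short palindromic DNA sites through the adjoining basic regions. FOS, FOSB, JUN, JUNB, EGR1, IER2 and IER3 are immediate early genes, whose transcription follows growth factors, serum or stress without new protein synthesis, in part through ERK and the serum response factor SRF. FOSL1 and FOSL2 respond later and make more stable proteins, and in glioblastoma FOSL1 is known for its part in the mesenchymal-like state.

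The RefSeq promoter table (GRCh38.p14) held 8 of the 10 members, all but FOSL1 and IER3. The promoters of FOS, JUN and EGR1 are shown because these genes include the pair called higher in both lines and the one called in U251 but not in T98G. Each run covers the 250 bases before the RefSeq start, written 5′ to 3′ on the gene's own strand. They lie at chr14:75278578-75278827 (plus strand), chr1:58784048-58784297 (minus strand) and chr5:138465229-138465478 (plus strand). The gene positions given below come from GENCODE release 29, whose starts can differ from those of RefSeq. By those positions the windows of JUN and FOSL2 lie inside their genes, and that of FOS ends inside FOS. Capitals mark matches to 5 motifs searched on both strands: the AP-1 site TGANTCA, the CRE-like site TGACNTCA, the TATA box TATAAA, the EGR1 site GCGNGGGCG and the CArG box, to which SRF binds.
FOS: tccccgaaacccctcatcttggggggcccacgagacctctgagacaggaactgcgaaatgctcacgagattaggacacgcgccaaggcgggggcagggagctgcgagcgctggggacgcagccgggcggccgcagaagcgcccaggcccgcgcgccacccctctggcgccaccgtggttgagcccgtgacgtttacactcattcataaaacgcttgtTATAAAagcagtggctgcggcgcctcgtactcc
JUN: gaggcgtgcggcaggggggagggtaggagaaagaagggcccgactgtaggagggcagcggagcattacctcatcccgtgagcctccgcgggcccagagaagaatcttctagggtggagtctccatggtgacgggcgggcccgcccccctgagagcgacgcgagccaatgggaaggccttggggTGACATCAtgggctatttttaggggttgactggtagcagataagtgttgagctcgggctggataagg
EGR1: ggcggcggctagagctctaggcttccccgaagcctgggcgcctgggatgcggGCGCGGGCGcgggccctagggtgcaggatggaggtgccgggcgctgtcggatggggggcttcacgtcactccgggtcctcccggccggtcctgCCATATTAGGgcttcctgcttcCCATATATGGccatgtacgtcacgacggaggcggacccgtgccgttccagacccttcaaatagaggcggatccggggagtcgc
In FOS the capitals are a TATA box 33 to 28 bases before the start. Sites farther than 250 bases before the start, CArG boxes included, were not searched in any gene. In JUN they are a CRE-like site, TGACATCA, 67 to 60 bases before it. In EGR1 they are an EGR1 site 198 to 190 bases before the start, then CArG boxes at 105 to 96 and 83 to 74 bases. FOSB and JUNB also held a TATA box and JUND a CRE-like site, while the window of FOSL2 and that of IER2 held none of the 5. Among all 35116 promoters of this length, 6.57% held the AP-1 site, 6.87% the CRE-like site, 10.7% the TATA box, 8.41% the EGR1 site and 1.16% the CArG box.

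Libraries were shallow for single genes, with 464056 to 924204 counts each, so that 3 counts equalled 3.25 to 6.46 CPM (counts divided by the library total, times 1e+06). PEPD stood at 154, 139 and 147 CPM in T98G PEPD-OE against 19.4, 2.70 and 11.8 in T98G NC, and at 165, 172 and 189 in U251 PEPD-OE against 12.6, 6.28 and 8.33 in U251 NC. By PEPD, every library fitted its PEPD-OE or NC label. PEPD was not called between the NC cells of the lines, so it does not bear on the line labels. MGMT, read as a marker of T98G against U251, had 10 counts in T98G PEPD-OE, 5 in T98G NC and 0 in U251. Of 6 glial markers, GFAP, VIM and CD44 were counted in both lines, and S100B was near 0, with 3 counts in U251 PEPD-OE, 1 in U251 NC and 0 in T98G. In T98G, NES had 5 counts in PEPD-OE and 14 in NC and SOX2 had 1 in each, while in U251 NES averaged 349 CPM in PEPD-OE and 352 in NC, and SOX2 278 CPM in PEPD-OE and 362 in NC. Markers of other cells were at or near 0 (VWF and EPCAM had 0 counts) apart from the keratins KRT8 and KRT18, PTPRC and PECAM1. PTPRC had 28 counts in T98G PEPD-OE and 35 in T98G NC, more than NES or SOX2 there. In U251 PTPRC had 6 counts in PEPD-OE and 7 in NC. PECAM1 had 13 counts in T98G PEPD-OE, 8 in T98G NC and 0 in U251. In T98G, PEPD-OE libraries also had more counts under the 13 mitochondrially encoded protein genes, 7.5% to 9.32% against 4.94% to 6.01% in NC, and under TALAM1, the transcript antisense to MALAT1, 3.48% to 4.18% against 1.11% to 1.23%. Their part in the changes below was not tested. The libraries were stranded, and the strand setting of the counting is not given in the sources used here. One antisense gene inside a member, AC011446.2, held 15.9 times the counts per kb of IER2, which it overlaps. Had the counting used the other strand, counts under a gene with no overlap would be left-over reads and not plain expression levels. Which strand was counted was not tested, so the levels and changes below are those of the counts under each gene.

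The members moved differently in the lines. In T98G, PEPD-OE libraries had more counts under FOS, FOSL2, JUN and JUNB and fewer under FOSL1. The log2 fold changes were 0.90 to 1.60 for the 4 that rose and -1.45 for FOSL1. In U251, FOS, FOSL1, JUN and EGR1 rose, by 0.63 to 2.91 on the log2 scale, and none fell. JUND and IER2 were called in neither line. A call means an adjusted p under 0.05 in edgeR's quasi-likelihood test, with the Benjamini-Hochberg adjustment over all 8773 genes tested. In bulk RNA, fewer expressing cells and less RNA per cell cannot be told apart.

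**Figure D1:**
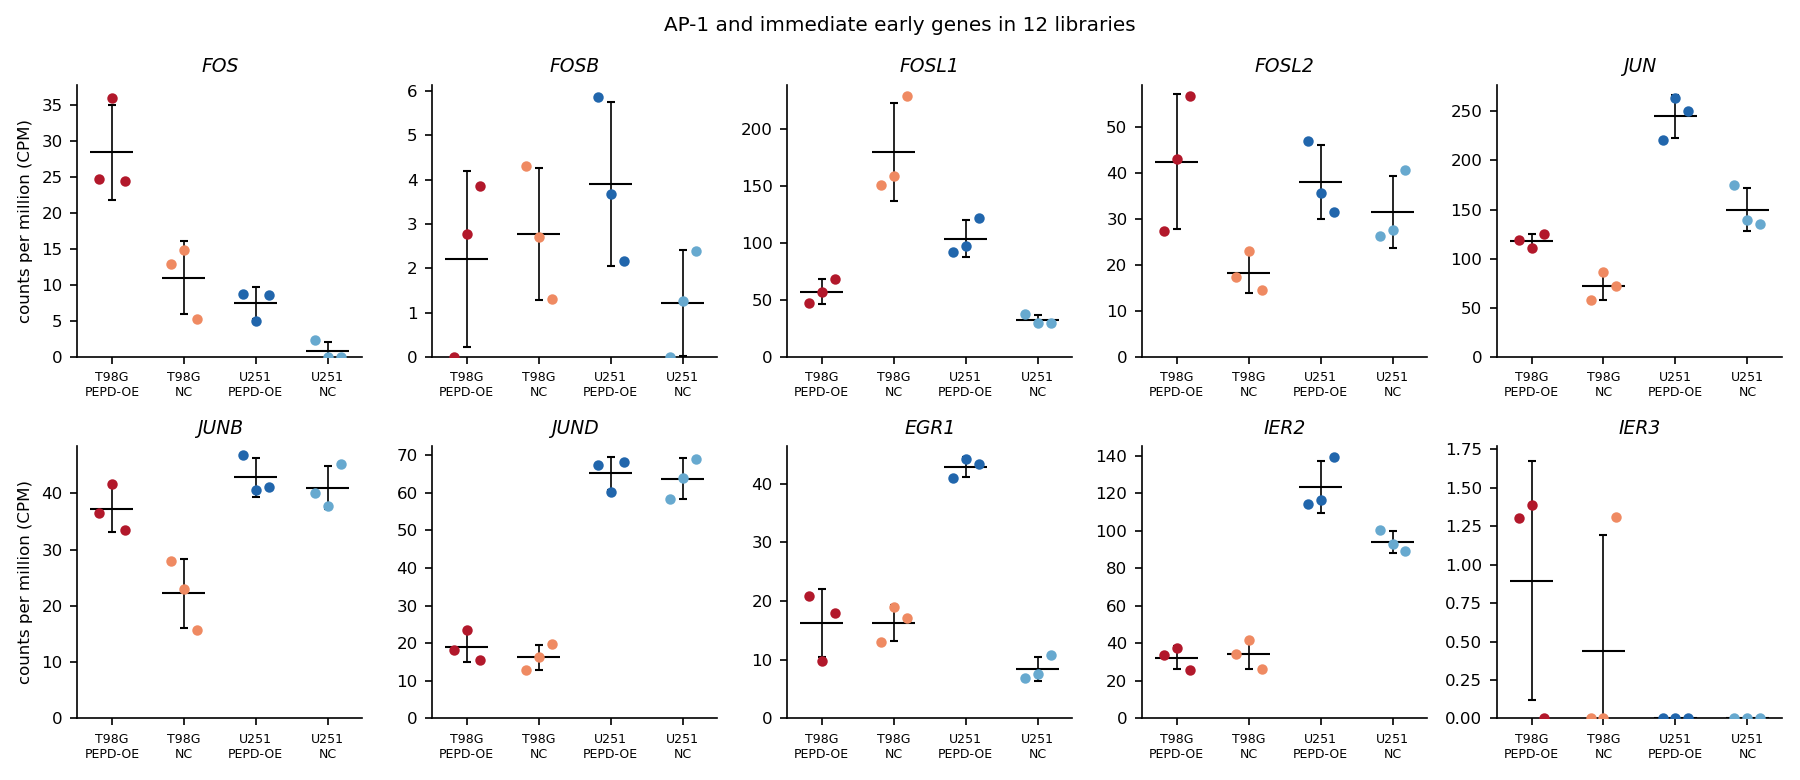
CPM of the 10 members in each of the 12 libraries, by group (points, libraries; line and bar, mean and SD of 3 libraries; each panel has its own axis from 0). FOSL1 lies at 46.9 to 68.2 CPM in T98G PEPD-OE below 151 to 229 in T98G NC, while in U251 the PEPD-OE libraries lie above NC.

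Of the 10 members, 8 passed the filter on low counts, which asked for about 12.9 CPM in enough libraries. FOSB and IER3 did not pass. FOS passed through T98G PEPD-OE, where all 3 libraries were over that level against 1 in T98G NC and none in U251, so its passing already asked for a high value in that group. In T98G, 4 of the 8, FOS among them, were called higher and 1 lower, where 17.7% of all tested genes were called higher and 14.7% lower. In U251, 4 were called higher and none lower, where 4.13% of all tested genes were called higher and 4.42% lower. No member was lower in U251 at an unadjusted edgeR p under 0.05 either, nor with DESeq2, which called 2 of the 4 members it tested there. The U251 total of 750 genes called was 440 without U251 PEPD-OE replicate 2, 449 without U251 NC replicate 1 and 442 without U251 NC replicate 3. The groups' libraries did not overlap for 5 members in each line, where that held for 45.8% of all tested genes in T98G and 23.0% in U251. The median log2 fold change of the 8 members, FOS included, was 0.65 in T98G and 0.47 in U251, against 0.00 over all genes in each line.

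**Figure D2:**
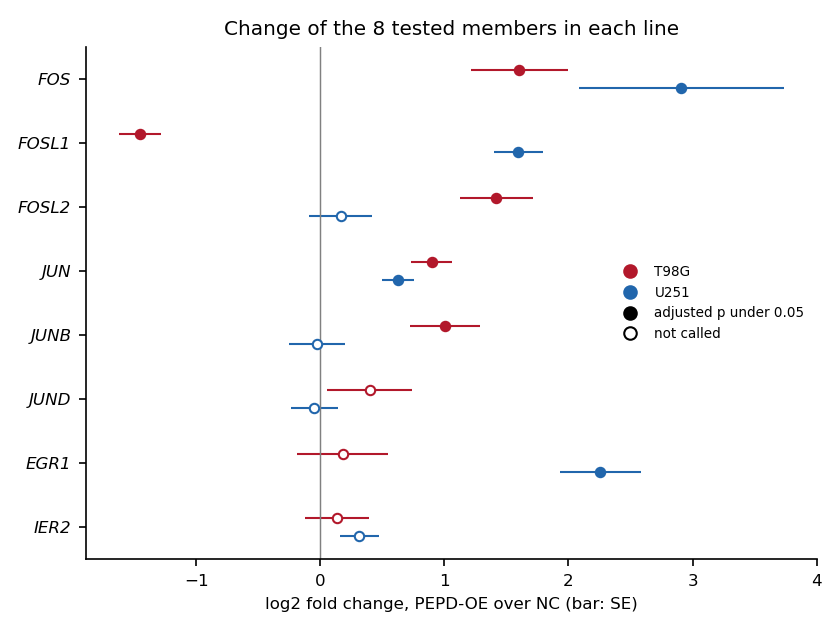
Log2 fold changes of PEPD-OE over NC in T98G (red) and U251 (blue) for the 8 tested members (bar, SE; filled points, adjusted p under 0.05). FOSL1 lies at -1.45 in T98G and 1.60 in U251, and EGR1 at 0.18 in T98G and 2.26 in U251.

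FOSL1 (ENSG00000175592, GRCh38 chromosome 11, 65892049 to 65900573, minus strand), which encodes Fra-1, had the most counts per kb of exon among the Fos genes. It had 46.9, 56.8 and 68.2 CPM in T98G PEPD-OE against 151, 159 and 229 CPM in T98G NC. In U251 it had 92.2, 97.0 and 122 CPM in PEPD-OE against 37.8, 30.1 and 29.8 CPM in NC. Every T98G PEPD-OE library was below every T98G NC library, and every U251 PEPD-OE library was above every U251 NC library. The means were 57.3 ± 10.7 against 179.8 ± 43.1 CPM in T98G and 104 ± 16.1 against 32.5 ± 4.51 CPM in U251 (SD, n = 3 each). FOSL1 fell in T98G by 1.45 log2 units (SE 0.17, edgeR adjusted p = 4.1e-13) and rose by 1.60 in U251 (SE 0.20, adjusted p = 3.853e-11). Its change in T98G minus that in U251 was -3.05 (SE 0.26, adjusted p = 5.57e-21).

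FOSL1 has no exon overlap with the opposite strand in GENCODE release 29, but CCDC85B (chromosome 11, 65890112 to 65891635, plus strand), which encodes a coiled-coil protein, ends 413 bases beyond its 3′ end. CCDC85B had 92.5, 77.6 and 96.6 CPM in T98G PEPD-OE against 336, 361 and 299 CPM in T98G NC. U251 cells had 285, 282 and 380 CPM in PEPD-OE against 109, 91.7 and 70.2 CPM in NC. Its log2 fold changes, -1.68 in T98G (SE 0.14) and 1.73 in U251 (SE 0.14), had the signs of those of FOSL1. Whether reads of one gene stand under the other was not tested. By the root mean square difference in log2 CPM over the 12 libraries, each gene centred on its own mean, CCDC85B was number 22 in likeness to FOSL1 among 5494 genes (0.445).

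**Figure D3:**
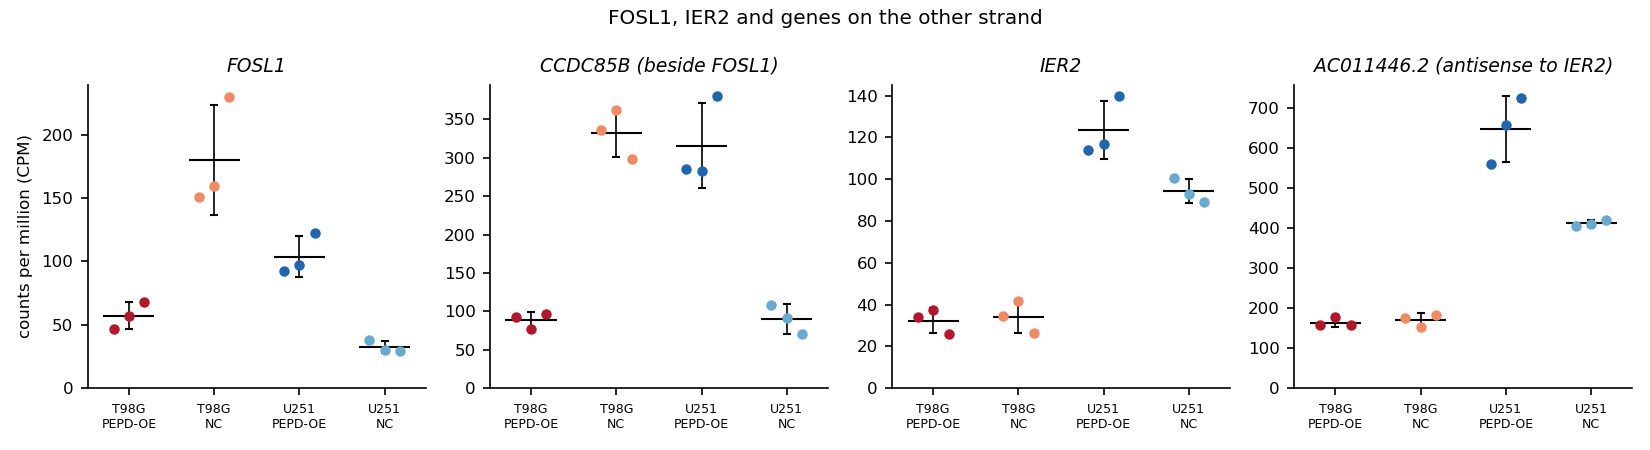
CPM of FOSL1 and IER2 beside CCDC85B and AC011446.2, which lie on the opposite strands, in the 12 libraries by group (points, libraries; line and bar, mean and SD; each axis starts at 0). CCDC85B is at 77.6 to 96.6 CPM in T98G PEPD-OE and 299 to 361 in T98G NC, and AC011446.2 at 559 to 724 in U251 PEPD-OE and 405 to 420 in U251 NC.

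FOS (ENSG00000170345, chromosome 14, 75278774 to 75282230, plus strand), which encodes c-Fos, had 105 counts over the 12 libraries. It had 24.7, 36.0 and 24.5 CPM in T98G PEPD-OE against 12.9, 14.8 and 5.24 CPM in T98G NC. Levels in U251 were 8.78, 4.91 and 8.66 CPM in PEPD-OE against 2.29, 0 and 0 CPM in NC. All PEPD-OE libraries were above all NC libraries of their line. FOS rose in T98G by 1.60 log2 units (SE 0.39, edgeR adjusted p = 0.0004284). In U251 the NC group held 2 counts in all against 18 in PEPD-OE, a ratio of scaled counts of 8.81 with an exact 95% counting interval of 2.11 to 78.3, which covers counting error only. The fitted log2 fold change in U251 was 2.91 (SE 0.82, adjusted p = 0.01199). That call was lost without U251 NC replicate 2 (adjusted p = 0.07038) or replicate 3 (adjusted p = 0.08185). Without replicate 1, which held both NC counts, the fitted value was 5.47 against an NC group at 0 counts and is no measured fold. The difference of the FOS changes, -1.31 (SE 0.94), did not pass (adjusted p = 0.3238).

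FOSL2 (ENSG00000075426, chromosome 2, 28392448 to 28417312, plus strand), which encodes Fra-2, had 27.4, 42.9 and 56.6 CPM in T98G PEPD-OE against 17.2, 22.9 and 14.4 CPM in T98G NC. The U251 libraries had 46.8, 35.6 and 31.4 CPM in PEPD-OE against 26.3, 27.6 and 40.5 CPM in NC. The T98G groups did not overlap and the U251 groups did. FOSL2 rose in T98G by 1.42 log2 units (SE 0.29, adjusted p = 2.907e-05), and its U251 value was 0.16 (SE 0.25, adjusted p = 0.7902). The T98G change exceeded the U251 change by 1.26 (SE 0.39, adjusted p = 0.00865). This last call was lost with DESeq2 (adjusted p = 0.1187) and without T98G PEPD-OE replicate 3 (0.06889), T98G NC replicate 3 (0.05295) or U251 NC replicate 3 (0.06935).

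FOSB (ENSG00000125740, chromosome 19, 45467995 to 45475179, plus strand), whose truncated form is known from chronically stimulated neurons, had 22 counts over the 12 libraries and was not tested. It had 0, 2.77 and 3.86 CPM in T98G PEPD-OE against 4.31, 2.70 and 1.31 in T98G NC, and 5.86, 3.68 and 2.16 CPM in U251 PEPD-OE against 0, 1.26 and 2.38 in U251 NC. The groups of each line overlapped. With 9 counts in U251 PEPD-OE against 3 in U251 NC, the ratio was 2.94 with a counting interval of 0.733 to 16.9, so a difference was not detectable at this depth.

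Per kb of exon, FOSL1 made up the largest part of the Fos counts in every library. Its share averaged 66.9% ± 3.31 in T98G PEPD-OE against 93.2% ± 3.19 in T98G NC, and 86.7% ± 3.68 in U251 PEPD-OE against 77.9% ± 5.15 in U251 NC (SD, n = 3 each). The FOS share was 19.6% ± 4.61 in T98G PEPD-OE against 3.61% ± 2.01 in T98G NC, and 3.62% ± 0.999 in U251 PEPD-OE against 0.966% ± 1.67 in U251 NC. FOSL2 made up 12.7% ± 2.31 in T98G PEPD-OE against 2.61% ± 0.936 in T98G NC, and 8.54% ± 2.50 in U251 PEPD-OE against 20.1% ± 5.45 in U251 NC. In T98G the libraries of the groups did not overlap in any of these 3 shares, and in U251 they overlapped for FOS but not for FOSL1 or FOSL2. Without the division by exon length, FOSL1 averaged 49.6% and FOSL2 47.4% of the U251 NC counts, since FOSL2 has 7157 exon bases against 1887 in FOSL1. These are shares of counts, and the strand that was counted was not tested. Had it been the other strand, the shares would not give the make-up of the family's RNA.

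**Figure D4:**
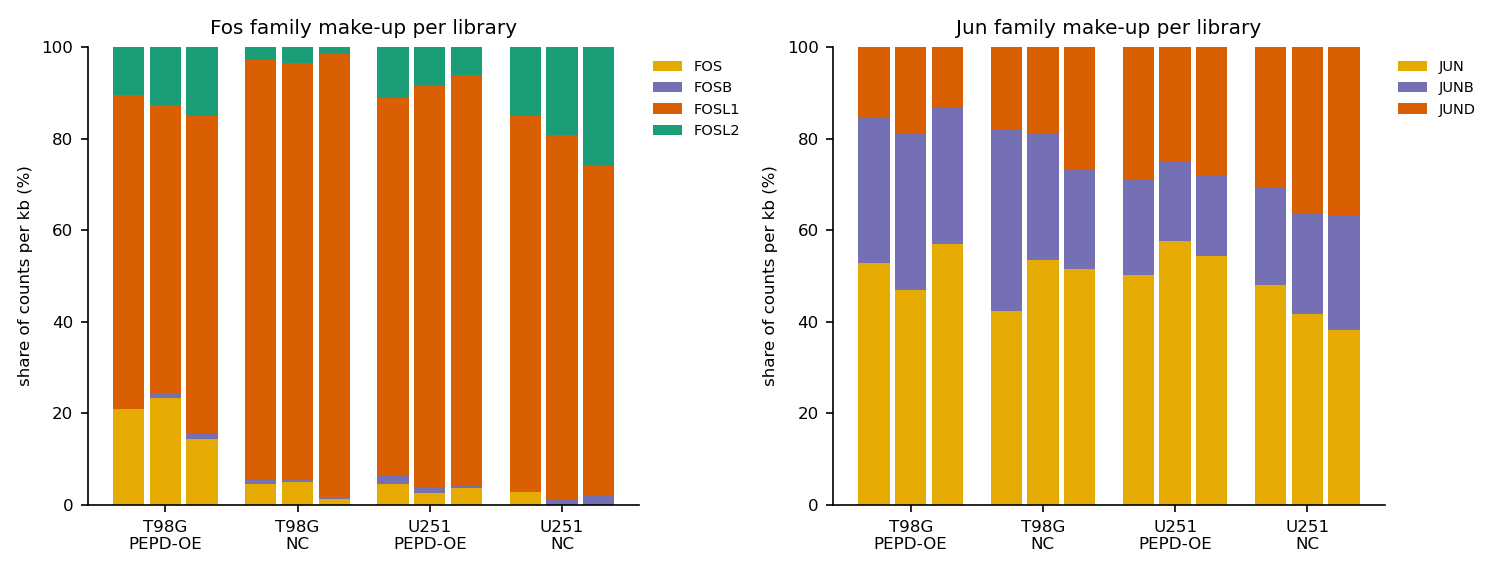
Make-up of the Fos counts (left) and of the Jun counts (right) per kb of exon in each of the 12 libraries, in percent of the family sum. The shares are of counts, and the strand that was counted was not tested. FOSL1 makes up 63.1% to 69.1% in T98G PEPD-OE and 91.1% to 96.9% in T98G NC.

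JUN (ENSG00000177606, chromosome 1, 58780788 to 58784327, minus strand), which encodes c-Jun, the founding Jun protein, had 1389 counts over the 12 libraries. It had 119, 111 and 125 CPM in T98G PEPD-OE against 58.2, 86.3 and 72.1 CPM in T98G NC. In U251 there were 221, 264 and 249.9 CPM in PEPD-OE against 175, 139 and 136 CPM in NC. The groups did not overlap in either line. JUN rose in T98G by 0.90 log2 units (SE 0.17, adjusted p = 3.844e-06) and by 0.63 in U251 (SE 0.13, adjusted p = 0.0002134), and the difference of 0.27 (SE 0.21) did not pass (adjusted p = 0.3786).

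JUNB (ENSG00000171223, chromosome 19, 12791496 to 12793315, plus strand), which can temper c-Jun activity, shares 259 exon bases with HOOK2 on the opposite strand, 14.2% of its length. Over the 12 libraries HOOK2 held 126 counts and JUNB 332. JUNB had 36.5, 41.6 and 33.5 CPM in T98G PEPD-OE against 28.0, 22.9 and 15.7 CPM in T98G NC. U251 values were 46.8, 40.5 and 41.1 CPM in PEPD-OE against 40.0, 37.7 and 45.2 CPM in NC. The T98G groups stood apart and the U251 groups overlapped. JUNB rose in T98G by 1.00 log2 units (SE 0.28, edgeR adjusted p = 0.002693). Leaving out T98G NC replicate 3 ended that call (adjusted p = 0.05824). Its U251 value was -0.03 (SE 0.23, adjusted p = 0.9781). The T98G change exceeded the U251 change by 1.03 (SE 0.36, adjusted p = 0.02241). The difference was no longer called with DESeq2 (adjusted p = 0.1585), with no filter on low counts (0.06417) and without T98G PEPD-OE replicate 2 (0.06529), T98G NC replicate 3 (0.1308) or U251 NC replicate 3 (0.06267).

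JUND (ENSG00000130522, chromosome 19, 18279760 to 18281622, minus strand), the Jun gene known for steady expression in resting cells, had 18.2, 23.6 and 15.4 CPM in T98G PEPD-OE against 12.9, 16.2 and 19.7 CPM in T98G NC. In U251 the levels were 67.3, 60.2 and 68.2 CPM in PEPD-OE against 58.3, 64.0 and 69.0 CPM in NC. The groups overlapped in both lines. Its log2 fold changes were 0.40 in T98G (SE 0.34, adjusted p = 0.401) and -0.05 in U251 (SE 0.19, adjusted p = 0.9308). Per kb of exon, JUN made up 52.2% ± 5.06 of the Jun counts in T98G PEPD-OE against 49.1% ± 5.87 in T98G NC, and 54.1% ± 3.77 in U251 PEPD-OE against 42.7% ± 5.01 in U251 NC (SD, n = 3 each). The JUND share was 15.9% ± 2.80 in T98G PEPD-OE against 21.2% ± 4.78 in T98G NC, and 27.4% ± 2.14 in U251 PEPD-OE against 34.6% ± 3.59 in U251 NC. For both shares the libraries of the groups overlapped in T98G and not in U251. The strand limit given for the Fos shares holds for the Jun shares too, and JUNB also overlaps HOOK2.

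EGR1 (ENSG00000120738, chromosome 5, 138465490 to 138469315, plus strand), a zinc finger factor induced through SRF, had 20.8, 9.70 and 18.02 CPM in T98G PEPD-OE against 12.9, 18.9 and 17.0 CPM in T98G NC. U251 libraries stood at 41.0, 44.2 and 43.3 CPM in PEPD-OE against 6.86, 7.53 and 10.7 CPM in NC. The T98G groups overlapped, and every U251 PEPD-OE library was above every other library of the series. EGR1 rose in U251 by 2.26 log2 units (SE 0.33, adjusted p = 1.918e-08), with means of 42.8 ± 1.66 against 8.37 ± 2.06 CPM, and its T98G value was 0.18 (SE 0.36, adjusted p = 0.751). The T98G change minus the U251 change was -2.08 (SE 0.51, adjusted p = 0.0005691). EGR1 has no exon overlap with the opposite strand in release 29.

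IER2 (ENSG00000160888, chromosome 19, 13150415 to 13154908, plus strand), an immediate early gene for a nuclear protein, had 33.9, 37.4 and 25.7 CPM in T98G PEPD-OE against 34.5, 41.8 and 26.2 CPM in T98G NC. In U251 its values were 114, 117 and 140 CPM in PEPD-OE against 101, 92.9 and 89.3 CPM in NC. The T98G groups overlapped and the U251 groups did not, yet the U251 log2 fold change of 0.32 (SE 0.16) did not pass (adjusted p = 0.2277). The T98G value was 0.14 (SE 0.26, adjusted p = 0.7296), with mean CPM of 32.3 in PEPD-OE and 34.2 in NC. Fold changes use TMM-scaled library sizes, whereas CPM uses the plain totals. AC011446.2 (ENSG00000267598, chromosome 19, 13153071 to 13154193, minus strand) lies with all its 946 exon bases inside IER2 exons and held 3515 counts per kb over the 12 libraries against 221 for IER2, which is 15.9-fold more. It had 559, 657 and 724 CPM in U251 PEPD-OE against 405, 409 and 420 CPM in U251 NC, and rose there by 0.57 log2 units (SE 0.11, adjusted p = 1.723e-05). In T98G it had 158, 177 and 157 CPM in PEPD-OE against 177, 152 and 183 CPM in NC, and the log2 fold change was 0.16 (SE 0.13, adjusted p = 0.3804). By the same root mean square measure AC011446.2 was number 2 in likeness to IER2 among 5494 genes (0.228). The strand of origin of these reads was not tested.

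IER3 (ENSG00000137331, chromosome 6, 30743199 to 30744554, minus strand), which is known for a part in cell survival, had 3 counts over the 12 libraries. It had 1.30, 1.39 and 0 CPM in T98G PEPD-OE against 0, 0 and 1.31 in T98G NC, and 0 counts in all U251 libraries. IER3-AS1, which shares 359 exon bases with it on the opposite strand, had 4 counts in all. IER3 was therefore at the limit of detection, where 3 counts stand for 3.25 to 6.46 CPM in a library.

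The NC cells of the lines also differed in these genes, in a comparison that shares its NC libraries with the comparisons above. In T98G NC relative to U251 NC, 2 of the 8 tested members were higher, 5 were lower and EGR1 was not called, where 24.4% of all tested genes were higher and 24.3% lower. FOSL1 was higher by 2.35 (SE 0.19) on the log2 scale. FOS had 21 counts in T98G NC against 2 in U251 NC, a ratio of 12.3 with a counting interval of 3.0 to 108.0. The lower members were JUND by -2.04 (SE 0.26), IER2 by -1.59 (SE 0.21), JUN by -1.15 (SE 0.16), JUNB by -1.06 (SE 0.27) and FOSL2 by -0.90 (SE 0.31). The FOSL2 call (adjusted p = 0.009752) was lost with DESeq2 (0.1044) and without T98G NC replicate 3 (0.08679) or U251 NC replicate 3 (0.1136). The EGR1 value was 0.86 (SE 0.41, adjusted p = 0.07224).

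The order of the 4 groups differed between members. FOSL1 ran from T98G NC through U251 PEPD-OE and T98G PEPD-OE to U251 NC, with no overlap between neighbouring groups. JUN ran from U251 PEPD-OE through U251 NC and T98G PEPD-OE to T98G NC, again with none. FOS ran from T98G PEPD-OE through T98G NC and U251 PEPD-OE to U251 NC, and the middle groups overlapped. For EGR1 U251 PEPD-OE came first, the T98G groups overlapped each other, and T98G PEPD-OE overlapped U251 NC. JUND and IER2 were at 58.3 CPM or more in every U251 library and at 41.8 CPM or less in every T98G library. In FOSL2 and JUNB only T98G NC was low, and the other 3 groups overlapped one another. Over the difference of the changes between the lines, 2 members were higher and 2 lower, where 14.1% of all tested genes were higher and 13.6% lower.

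Genes around the members were read from lists chosen with earlier results of these data known. Of 21 tested AP-1 target genes, 12 fell and 3 rose in T98G, against the 14.7% and 17.7% of all tested genes, with a median log2 fold change of -0.61. In U251, 1 fell and 4 rose, against 4.42% and 4.13%, with a median of 0.09. Over single libraries left out, 10 to 12 of the list were lower in T98G. Among the 9 of the list with no overlap on the opposite strand, 4 fell and 2 rose in T98G, and 2 rose in U251. Of all 4176 tested genes without such overlap, 490 fell and 650 rose in T98G, and 111 fell and 134 rose in U251. LAMB3, a laminin chain, fell to 9.26 ± 3.85 CPM in T98G PEPD-OE, against 44.3 ± 2.11 CPM in T98G NC (log2 fold change -2.02, SE 0.35). TNC (opposite DEC1), the matrix protein tenascin-C, fell by 2.26 (SE 0.32), and DKK1 (opposite PRKG1-AS1), a secreted Wnt inhibitor, had 1 count in T98G PEPD-OE against 35 in T98G NC, a ratio of 0.0289 with a counting interval of 0.000711 to 0.172. CXCL8, a neutrophil chemokine, rose in U251 by 1.37 (SE 0.36), a call lost without U251 PEPD-OE replicate 3 (adjusted p = 0.06752), and had 1 count in T98G PEPD-OE against 13 in T98G NC. The T98G change minus the U251 change was lower for 11 of the 21 and higher for 1, where 13.6% of all tested genes were lower and 14.1% higher.

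**Figure D5:**
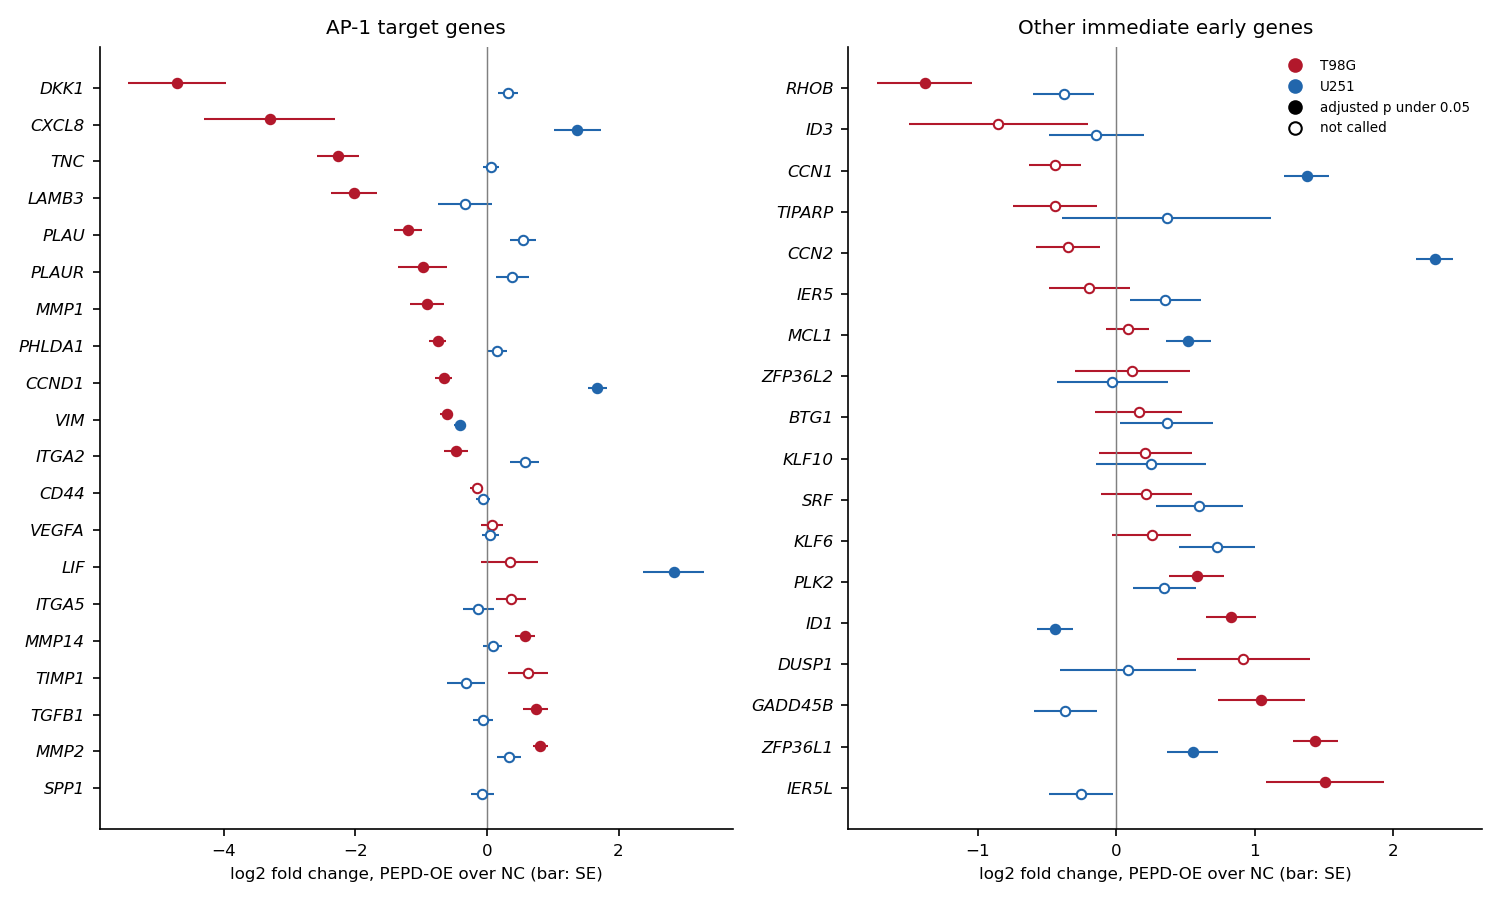
Log2 fold changes of PEPD-OE over NC in T98G (red) and U251 (blue) for 20 of the 21 tested AP-1 target genes and the 18 other immediate early genes (bar, SE; filled points, adjusted p under 0.05). A gene with 0 counts in a group of a line has no point for that line. LAMB3 lies at -2.02 in T98G, and CCN1 at 1.38 in U251.

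Of 18 other tested immediate early genes, 5 rose and 1 fell in T98G (median 0.19), where 17.7% of all tested genes rose and 14.7% fell. In U251, 4 rose and 1 fell (median 0.35), where 4.13% of all tested genes rose and 4.42% fell. DESeq2 gave 6 of the 18 an adjusted p in U251, of which 2 rose, and edgeR called 2 higher there without U251 PEPD-OE replicate 2 or 3 or U251 NC replicate 3. In T98G, 3 rose with DESeq2, and 2 fell without T98G NC replicate 1 or 2 or U251 PEPD-OE replicate 1. ZFP36L1, which promotes decay of AU-rich messages, rose in T98G by 1.44 (SE 0.16), with 168 ± 23.0 CPM in PEPD-OE against 71.4 ± 4.13 CPM in NC. Its U251 value was 0.55 (SE 0.19, adjusted p = 0.04625) and lost the call without each of the 12 libraries in turn. RHOB, a small GTPase, fell in T98G by 1.38 (SE 0.34), and ID1, an inhibitor of basic helix-loop-helix factors, rose there by 0.83 (SE 0.18). CCN1, a matrix-associated signalling protein, rose in U251 by 1.38 (SE 0.16), with 171 ± 14.1 CPM in PEPD-OE against 62.6 ± 11.9 CPM in NC. MCL1, a survival factor, rose in U251 by 0.52 (SE 0.16), a call lost without U251 PEPD-OE replicate 2 or 3 and without U251 NC replicate 1 or 3 (adjusted p = 0.05331 to 0.1915).

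Of 7 other AP-1 partners tested, 2 rose and none fell in T98G, where 17.7% of all tested genes rose and 14.7% fell. They were MAFG (opposite AC145207.8) and MAFK (opposite TMEM184A), both small Maf proteins, at 1.10 (SE 0.29) and 0.94 (SE 0.26). In U251 edgeR called none of the 7 (1 at an unadjusted p under 0.05), where 4.13% of all tested genes rose and 4.42% fell. DESeq2 gave 1 of the 7 an adjusted p in U251 and did not call it. Of 21 genes on the route from ERK, JNK, p38 and the ternary complex, 3 rose and 1 fell in T98G, shares below the 17.7% and 14.7% of all tested genes, and 2 fell without T98G NC replicate 2 or U251 PEPD-OE replicate 1. In U251 edgeR called none of the 21 (1 lower at an unadjusted p under 0.05), against the same 4.13% and 4.42% of all tested genes. DESeq2 called none of the 5 that it gave an adjusted p. With edgeR 1 was lower without U251 PEPD-OE replicate 1 or U251 NC replicate 3. MAPK3, which encodes ERK1, rose in T98G by 1.69 (SE 0.41), with 24.3 ± 0.762 CPM in PEPD-OE against 8.91 ± 1.62 CPM in NC. Heat shock genes were read because cell handling can change them together with immediate early genes. In T98G 4 of 6 fell and none rose (median -1.23), where 14.7% of all tested genes fell and 17.7% rose. DNAJA1, a chaperone, fell by 1.91 (SE 0.15). In U251 2 rose and none fell (median 0.15), where 4.13% of all tested genes rose and 4.42% fell. Their part in the changes of the members was not tested.

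The genes whose levels over the 12 libraries were most like each called member were taken by the root mean square difference described above, among genes with a mean of at least 20 CPM. For FOSL1 they were CCND1 (opposite LTO1), which encodes cyclin D1, PPP1R15A, a phosphatase subunit of the stress response, and CCDC86 (opposite PTGDR2 and others), at 0.303, 0.354 and 0.377 against a median of 0.955 over all genes. For FOS they were GCLC (opposite AL033397.2), CENPJ and TXNRD1, at 0.508 for GCLC against a median of 1.31. For EGR1 they were PCAT1 (opposite FAM84B) at 0.333, ENSG00000286837 at 0.445 and CCN1 at 0.447, against a median of 0.878. FOSL2 was nearest to ZMYM3 (0.295), JUN to FRMD4A (0.266, opposite AL157896.1 and others) and JUNB to LIG3 (0.172, opposite RFFL and CCT6B). These are descriptions over 12 libraries that share their depth and scaling.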

How the data were processed

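Per the labels' protocols, polyadenylated RNA was captured on beads, made into stranded libraries by dUTP marking and sequenced as paired-end reads on a NovaSeq system. FastQC and fastp, HISAT2, featureCounts, Subread and GRCh38 appear in the list of tools and builds, per the submitters' processing notes, which give no role or version here. The table deposited by the authors holds raw counts per gene, 1 column per library, with no normalization found in the values. Columns were mapped by the library names in the labels, and 0 value columns were left unmapped.

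From these counts, CPM was computed on each library's total, and overlap between groups was judged on this CPM. The fold changes use TMM scaling, with factors of 0.908 to 0.931 in T98G PEPD-OE against 1.05 to 1.08 in T98G NC. A T98G fold change is therefore higher than the printed CPM alone would give. Differential expression was tested with edgeR 4.0.16 in R 4.3.3: filterByExpr with a minimum count of 10, TMM scaling, and a robust quasi-likelihood fit of 1 mean per group to all 12 libraries, with 8 residual degrees of freedom. Two-sided p-values were adjusted over all 8773 genes. The SE is the size of the log2 fold change divided by the square root of F, and for low genes it can lie below the counting error. An exact test of 3 against 3 cannot go below p = 0.1. Positions, exon lengths and overlaps came from GENCODE release 29, with the partner of a list gene or like gene named after "opposite". Promoters came from RefSeq, and protein sequences were not analysed here. The procedure was tested on simulated data.

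The members and lists were chosen with earlier results of these data known. The text names all members, PEPD, up to 4 called genes per list and comparison (a mean of at least 10 CPM, groups not overlapping, largest fold change), of which a part is given and some are not reported here, and, of the 3 genes most like each called member (log2 CPM with a prior count of 2), all for FOSL1, FOS and EGR1 and the nearest for FOSL2, JUN and JUNB. CCDC85B, ERCC1, AC011446.2, HOOK2, CXCL8 in T98G and TALAM1 were chosen after their values were seen. Alternatives were DESeq2 1.42.0, scaling by RLE or the upper quartile, no filter, at least 1 CPM in 3 libraries, each line alone, the replicate block, robust estimation off, genes without opposite-strand overlap, and each library left out.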

Additional observations from a re-analysis of the deposited data

Results flagged for a closer look

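The change under PEPD-OE differed between the lines in 4 members by the test of the difference itself, T98G minus U251 in log2 fold change (edgeR's quasi-likelihood test, adjusted over all genes). FOSL1 differed by -3.05 (SE 0.26), with a change of -1.45 in T98G and 1.60 in U251. EGR1 differed by -2.08 (SE 0.51), with 0.18 in T98G and 2.26 in U251. FOSL2 differed by 1.26 (SE 0.39), with 1.42 in T98G and 0.16 in U251. JUNB differed by 1.03 (SE 0.36), with 1.00 in T98G and -0.03 in U251. The differences of FOSL1 and EGR1 passed in all 20 alternatives run for each, whereas that of FOSL2 was lost in 4 of 20 and that of JUNB in 5 of 19.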

How the results depend on the processing

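In T98G the calls of FOS, FOSL1, FOSL2 and JUN, and in U251 those of FOSL1, JUN and EGR1, held in every alternative that gave them an adjusted p. JUNB in T98G was lost in 1 of 20 and FOS in U251 in 2 of 19. Over all genes called higher and lower, DESeq2 gave 948 and 743 in T98G, 136 and 235 in U251, and 747 and 630 for the difference between the lines. Its own filter left 4 members tested in U251, of which 2 were called, and it called 2 members in the difference. Genes without opposite-strand overlap, fewer by construction, gave 650 and 490 in T98G, 134 and 111 in U251, 472 and 445 for the difference and 922 and 921 between NC cells. With no filter, 257 genes were lower in U251. Leaving out single libraries, U251 had 218 to 356 genes higher and 208 to 389 lower, with the fewest without U251 PEPD-OE replicate 2 (218 and 222), U251 NC replicate 1 (221 and 228) or U251 NC replicate 3 (234 and 208), and 2 to 4 members were called in the difference, 2 of them without T98G NC replicate 3 or U251 NC replicate 3. The causes were not tested.

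Signs turned only in values that were not called. Over single libraries left out, the log2 fold change ranged from -0.017 to 0.41 for FOSL2, from -0.11 to 0.069 for JUNB and from -0.11 to 0.033 for JUND in U251. It ranged from -0.043 to 0.43 for EGR1 and from -0.062 to 0.33 for IER2 in T98G, and from -0.38 to 0.018 for the IER2 difference. Same-numbered replicates showed no shared deviation (correlations -0.0417 to 0.0582 over 6 pairs). Counting noise at this depth can hide a shared deviation, so pairing by number was not excluded. With the replicate block, 2859 genes were called in T98G, 792 in U251, 2429 in the difference and 4290 between NC cells, and 5, 4, 4 and 7 members. Of the 40 group levels, 38 moved by less than 1 SD on the TMM-scaled library size, and JUN and JUNB in T98G PEPD-OE became 132 and 41.7 CPM. Without exon length, 24 of the 28 family shares moved by over 1 SD. Depth limits FOS in U251, FOSB and IER3 most.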
